A study of Mus musculus with 16 samples.

Results

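Urate oxidase and 8 enzymes of purine salvage and breakdown were followed through 16 RNA-seq libraries of the mouse mammary cancer cell line 6DT1. The 9 genes, of 25745 genes in the deposited count table, were chosen by name together with the earlier observation that Uox was read almost entirely in the empty-vector cells. Their differences between the vectors are therefore given below as a description, with no test. The H2O2 contrasts were not used in choosing them and were tested.

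All cells were 6DT1, labelled as strain FVB/N1, and all carried a lentivirus. One line received a lentivirus expressing CLIC4, an oxidoreductase, and the other an empty lentiviral vector. Each line was harvested untreated or after 24 hours with 1 µM H2O2, in 4 libraries per group. Libraries 1 to 4 were lentiviral CLIC4 cells left untreated, 5 to 8 the same cells with H2O2, 9 to 12 untreated empty-vector cells and 13 to 16 empty-vector cells with H2O2. The label fields conflict on genotype: one describes empty-vector samples as CLIC4-Knockout and the rest as wildtype cells, while the design text speaks of an empty vector and of CLIC4 expression. Nothing in the labels says whether either line was a clone or whether the libraries came from separate cultures, so the spread between libraries may be technical and each vector is represented by 1 line.

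Purine nucleotides are built from small precursors or recovered from bases and nucleosides. AMP deaminase converts AMP to IMP, adenosine deaminase converts adenosine to inosine, and purine nucleoside phosphorylase releases hypoxanthine and guanine. The phosphoribosyltransferase Hprt returns these bases to nucleotides, and Aprt does so for adenine. Hypoxanthine that is not recovered is oxidised by xanthine dehydrogenase to xanthine and then urate, and guanine joins as xanthine after guanine deaminase. In mice urate oxidase, a peroxisomal enzyme best known from liver, converts urate further and releases H2O2.

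The upstream windows of 2 genes are printed to set Uox, near 0 in one line and read in the other, beside Hprt, a housekeeping gene read in every library. They come from RefSeq promoter records on GRCm38.p6, which matched 8 of the 9 genes, Xdh being the other. The Uox stretch is chr3:146596899-146597076 on the plus strand, the 178 bases of the 250-base window that lie outside annotated exons, and the Hprt stretch is chrX:52987828-52988077 on the plus strand. Capitals mark matches to the GC box GGGCGG on either strand.
Uox: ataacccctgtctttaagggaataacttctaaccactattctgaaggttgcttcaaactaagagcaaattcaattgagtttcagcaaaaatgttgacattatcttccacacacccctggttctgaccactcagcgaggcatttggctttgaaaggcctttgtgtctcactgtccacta
Hprt: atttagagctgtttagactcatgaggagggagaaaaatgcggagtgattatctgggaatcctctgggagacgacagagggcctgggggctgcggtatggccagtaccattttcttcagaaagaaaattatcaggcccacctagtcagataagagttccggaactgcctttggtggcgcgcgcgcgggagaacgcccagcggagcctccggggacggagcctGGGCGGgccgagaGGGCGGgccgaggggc

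The 250 bases before the RefSeq start of Uox held none of 6 motifs searched on both strands. These were the GC box GGGCGG, found in 32.7% of 32851 RefSeq promoter windows of the same length, the CCAAT box CCAAT in 33.8%, the TATA box TATAAA in 12.4%, the E-box CACGTG in 6.02%, the AP-1 site TGACTCA in 4.46% and the antioxidant response element core TGACNNNGC in 10.2%. Hprt held 2 GC boxes and none of the other motifs. The Uox window was 42.8% G and C, against 59.6% for Hprt and a median of 52.4% over all windows. It has 72 bases of annotated exon and lies inside the span of Uox in GENCODE vM21, chr3:146570426-146632305. Which start of Uox these cells use was not tested.

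Total counts per library ran from 47089156 to 61945199. Library 11 (empty vector, untreated) differed from the rest. Its log2 CPM correlated at 0.925 to 0.926 with the other libraries of its group, whereas all other pairs within a group reached at least 0.998. Levels are given as CPM, read counts relative to the library's total, adjusted by the trimmed mean of M values (TMM-scaled CPM), and the untreated vector values of the 9 genes are given with and without library 11. For other named genes the values without it are given where they end a call, turn its direction or move it by over 1.5 times. The Clic4 gene was read at 229 ± 10.4 TMM-scaled CPM (SD, n = 4) in untreated lentiviral cells and 243 ± 12.9 (SD, n = 4) with H2O2. In empty-vector cells it was at 42.5 ± 1.93 (SD, n = 3) untreated without library 11, 66.3 ± 47.8 (SD, n = 4) with it, and 42.4 ± 2.35 (SD, n = 4) with H2O2, so the count follows the vector names, and it does not separate vector transcripts from those of the gene itself. Of the markers of mammary epithelium, Krt8, Krt18 and Krt19 were read in all groups, at group means between 78.7 and 595 TMM-scaled CPM, while Krt5, Krt14, Epcam and Cdh1 were at or near 0 outside library 11, where Epcam reached 13.0. Untreated without library 11, these 3 keratins averaged 614, 186 and 166 with the empty vector, against 423, 89.2 and 78.7 in lentiviral cells. Esr1 was at 0.319 against 2.87, and Gata3 at 22.8 against 24.8, with 167 in library 11.

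**Figure D1:**
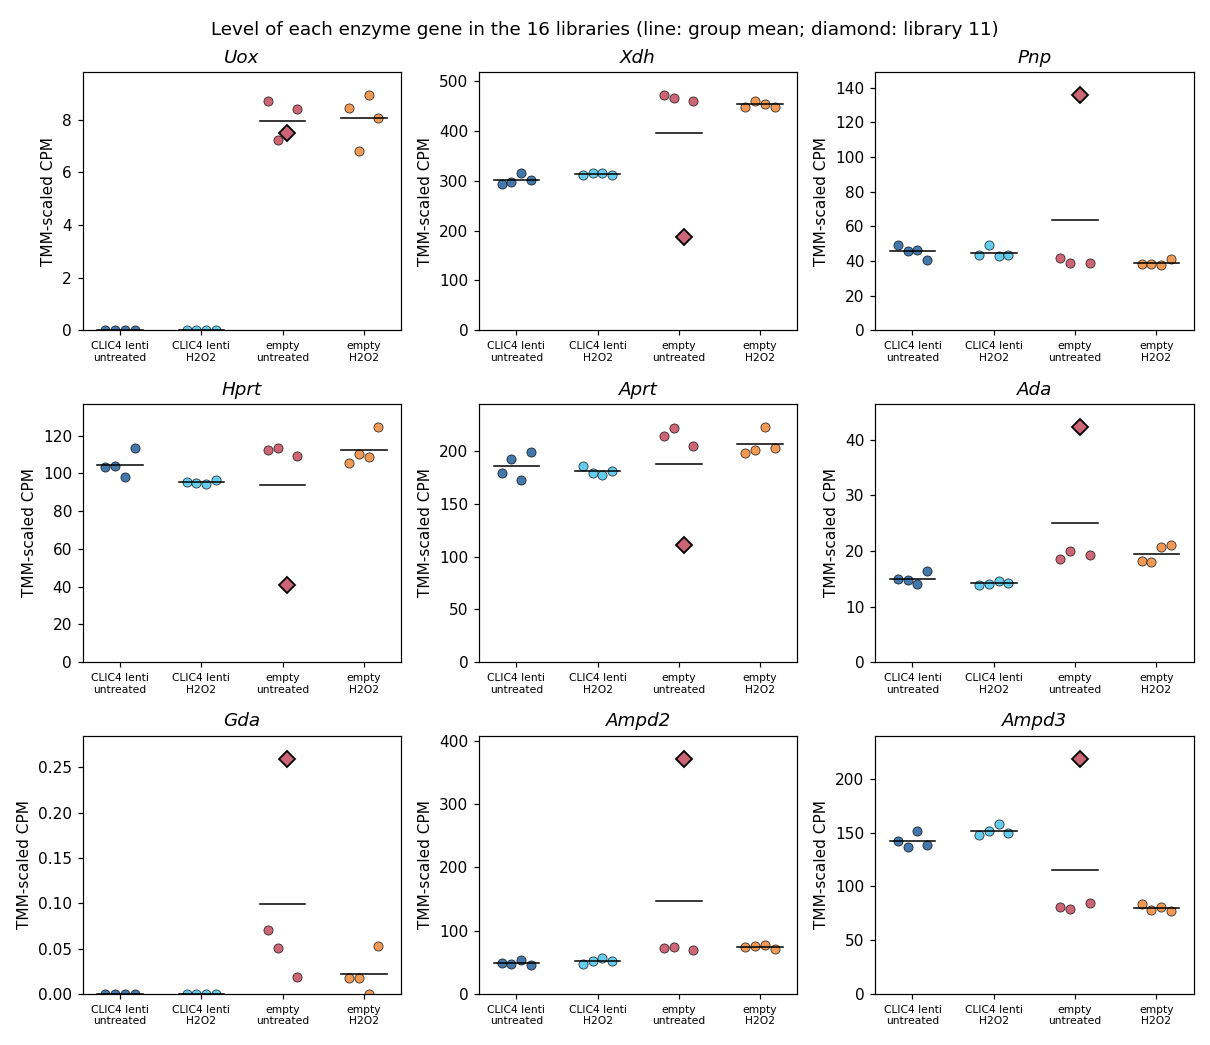
TMM-scaled CPM (vertical axis, linear from 0) of the 9 genes in each of the 16 libraries by group; points are libraries, lines are group means and the diamond is library 11. Uox lies between 6.80 and 8.92 in all empty-vector libraries and at most at 0.0215 in lentiviral ones, while library 11 sits far from its group for Xdh, Pnp, Hprt, Aprt, Ada, Ampd2 and Ampd3.

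Uox was the gene of the 9 with the widest separation between the vectors. The untreated lentiviral libraries held 0, 0, 0 and 1 Uox counts, and the H2O2-treated ones 0, 1, 1 and 1. The empty-vector libraries held 493, 427, 289 and 451 counts untreated and 466, 394, 543 and 457 with H2O2. Every empty-vector library, library 11 included, was thus above every lentiviral one. The level was 7.95 ± 0.707 TMM-scaled CPM (SD, n = 4) in untreated empty-vector cells, or 8.10 ± 0.781 (SD, n = 3) without library 11, and 8.06 ± 0.909 (SD, n = 4) with H2O2.

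Set against the few lentiviral counts, the ratio of empty vector to lentivirus was 1731 (95% exact interval 310 to 68427, counting error only) untreated and 614 (210 to 2981) with H2O2. The single untreated lentiviral count came from library 4. Without that library the lentiviral count was 0, and against the limit of 3 counts over the group Uox was at least 454-fold higher with the empty vector. Uox passed the filter on low counts through the empty-vector libraries alone.

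The Uox value of library 11 depended on the scaling. It lay inside the range of its group in TMM-scaled CPM, at 7.49 against 7.22 to 8.70, and below it in unscaled CPM, at 5.39 against 7.44 to 9.01. In deposited FPKM, which also divides by transcript length, library 11 held 4.33 and the other untreated empty-vector libraries 6.18 to 8.95.

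Uox occupies chr3:146570426-146632305 on the plus strand of mm10, and its span overlaps that of Dnase2b, a deoxyribonuclease gene on the opposite strand. Dnase2b was read at 18 counts in untreated empty-vector cells, 15 of them in library 11, at 6 with H2O2, and at 1 and 0 in lentiviral cells. The nearest genes beyond the end of Uox were also low. Gm16325, an antisense transcript 9.63 kb away, had 45 and 33 counts in untreated and H2O2-treated empty-vector cells and 0 in all lentiviral libraries, at least 15.6-fold and 10.9-fold higher against 3 counts over the group. Samd13 had 17 and 13 counts against 0, at least 5.91-fold and 4.29-fold higher. Of the 17 counts, 8 were in library 11, and without it Samd13 was at least 3.84-fold higher untreated. The gene 4930503B20Rik had 5 counts, all in library 11. The share of reads from one gene that were assigned to an overlapping neighbour was not tested, since the strand setting of the counting is not known.

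The genes before the start of Uox were read with either vector, Rpf1 and Gng5 at high counts and Spata1 at 53 to 142 counts per library. Rpf1, a ribosome biogenesis factor, had log2 changes (empty vector minus lentivirus) of -0.17 ± 0.11 (SE) untreated and -0.02 ± 0.11 (SE) with H2O2, with adjusted p = 0.217 and 0.894 by the quasi-likelihood test of edgeR. Gng5, a G protein gamma subunit, was at -0.09 untreated (adjusted p = 0.126, edgeR) and -0.13 with H2O2 (adjusted p = 0.0425, edgeR), and at -0.13 untreated without library 11 (adjusted p = 0.00129, edgeR). Spata1 was at -0.27 (adjusted p = 0.11, edgeR) and 0.08 (adjusted p = 0.688, edgeR).

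Because Uox is a liver and, in some species, kidney enzyme, hepatocyte and proximal tubule markers were summed in every library. Of 10 hepatocyte markers 7 were in the table. Their sum was 0.158 to 0.361 TMM-scaled CPM in lentiviral libraries and 2.49 to 5.03 in empty-vector ones, highest in library 11. Most of that sum was Serpina1a, at group means of 0.246 and 0.218 in lentiviral cells and 3.16 and 2.76 in empty-vector cells. The defining markers Alb, Tat, Cyp2e1 and Hnf4a were at or near 0, with no library above 0.0493. Of 5 kidney tubule markers 2 were in the table, and Cubn, a receptor for endocytosis, reached 86.0 in library 11 against group means of 1.42 to 2.38 elsewhere. The part of these markers in the Uox values was not tested.

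The summed endothelial markers ran the other way, at 79.9 to 85.9 TMM-scaled CPM in lentiviral libraries and 3.53 to 7.78 in empty-vector ones, highest in library 11. Nearly all of the lentiviral sum was Cdh5, and the difference came from that gene. Untreated and without library 11, Pecam1 was at 0.474 in lentiviral and 0.491 in empty-vector cells, and it reached 3.32 in library 11. Kdr and Tek were near 0 in all groups. Of the immune markers the sum was 77.6 to 92.6 in lentiviral and 223 to 370 in empty-vector libraries, highest in library 11, most of it Cd68. Itgam was at group means of 0.0804 untreated and 0.0173 with H2O2 in lentiviral cells. In empty-vector cells Itgam was at 4.91 untreated without library 11 and 4.63 with H2O2. Ptprc, which marks all white blood cells, and Adgre1 were at or near 0, with no library above 0.0536. Mesenchymal markers, chiefly Vim, summed to 2536 to 2686 in lentiviral and 2710 to 3944 in empty-vector libraries, lowest in library 11. Without library 11 the empty-vector sums were 3572 to 3765 untreated, and they were 3562 to 3944 with H2O2. Among them, untreated and without library 11, Pdgfra was at 4.29 in lentiviral and 16.0 in empty-vector cells. Col1a1 and Dcn went the other way, from 7.82 to 2.52 and from 1.97 to 0.113. In bulk RNA, fewer cells of a type and less RNA per cell cannot be told apart.

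The genes whose pattern over the 16 libraries was most like that of Uox were named by Pearson correlation of log2(TMM-scaled CPM + 0.1). They were Thbs2 (a matrix glycoprotein), Lgals7 (a galectin), Cd40 (a receptor of the tumour necrosis factor family), Emilin2 (a matrix protein) and Cyp11a1 (the cholesterol side-chain cleavage enzyme), with r from 0.9987 to 0.9991. The libraries form separate clusters by vector, so many genes share this shape: 356 of 14437 genes had r above 0.98. Cd40 and Cyp11a1 were as low as Uox in lentiviral cells, with 4 and 5 counts over the 8 libraries, whereas Thbs2, Lgals7 and Emilin2 kept 1118, 758 and 840 counts there.

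Xdh, xanthine dehydrogenase, which makes the urate that Uox consumes and is abundant in mammary epithelium, was read at high levels in every library. Untreated lentiviral libraries held 294, 298, 316 and 301 TMM-scaled CPM, and H2O2-treated ones 311, 315, 315 and 312. Untreated empty-vector libraries 9 to 12 held 471, 466, 187 and 460, and H2O2-treated ones 448, 460, 455 and 449. Apart from library 11, which was below all others, the empty-vector libraries were above all lentiviral ones. The log2 change (empty vector minus lentivirus) was 0.63 ± 0.03 (SE) untreated without library 11 and 0.39 ± 0.20 (SE) with it, and 0.53 ± 0.20 (SE) with H2O2. The groups share their estimate of the spread, so library 11 also enters the SE with H2O2. In the fit without library 11 that SE was 0.03. Per unit length, Xdh exceeded Uox in empty-vector cells by 17.2 ± 3.19-fold (SD, n = 3) untreated without library 11 and 16.0 ± 2.01-fold (SD, n = 4) with H2O2, on the FPKM scale.

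The AMP deaminase genes differed between the lines in opposite directions. Ampd2, the form found in most tissues, was at 48.6, 48.0, 53.7 and 46.2 TMM-scaled CPM in untreated lentiviral cells and 72.6, 73.8, 371 and 70.2 in libraries 9 to 12. With H2O2 it reached at most 56.9 in lentiviral cells, with a mean of 52.0 ± 4.05 (SD, n = 4), and was at 74.1, 75.1, 77.9 and 70.4 in empty-vector cells. No empty-vector library fell into the lentiviral range, and library 11 was 5.13 times the mean of its group mates. The log2 change was 0.56 ± 0.06 (SE) untreated without library 11, 1.58 ± 0.44 (SE) with it and 0.52 ± 0.43 (SE) with H2O2 (SE 0.05 in the fit without library 11).

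Ampd3, the form first described in red blood cells, was at 142, 137, 152 and 139 TMM-scaled CPM in untreated lentiviral cells and 80.7, 78.7, 218 and 84.9 in libraries 9 to 12. With H2O2 it was at 148, 152, 158 and 150 in lentiviral cells and 84.1, 77.7, 80.7 and 77.0 in empty-vector cells. Every empty-vector library except library 11 was below every lentiviral one. The log2 change was -0.81 ± 0.04 (SE) untreated without library 11, -0.30 ± 0.25 (SE) with it and -0.92 ± 0.26 (SE) with H2O2 (SE 0.04 in the fit without library 11).

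The make-up of AMP deaminase transcripts therefore did not overlap between the lines. On the FPKM scale Ampd2 was 27.3 ± 2.01% (SD, n = 4) of the sum of both in untreated lentiviral cells and 26.4 ± 0.379% (SD, n = 4) with H2O2. It was 49.1 ± 2.43% (SD, n = 3) in untreated empty-vector cells without library 11, 64.2% in library 11 and 50.3 ± 1.66% (SD, n = 4) with H2O2. The lowest empty-vector share, 46.5%, exceeded the highest lentiviral share, 29.7%. Being a ratio within a library, this share does not depend on the scaling factor. Ampd3 shares its span with Rnf141 on the other strand and Ampd2 with Gm12500, so some reads of either may belong to those genes.

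**Figure D2:**
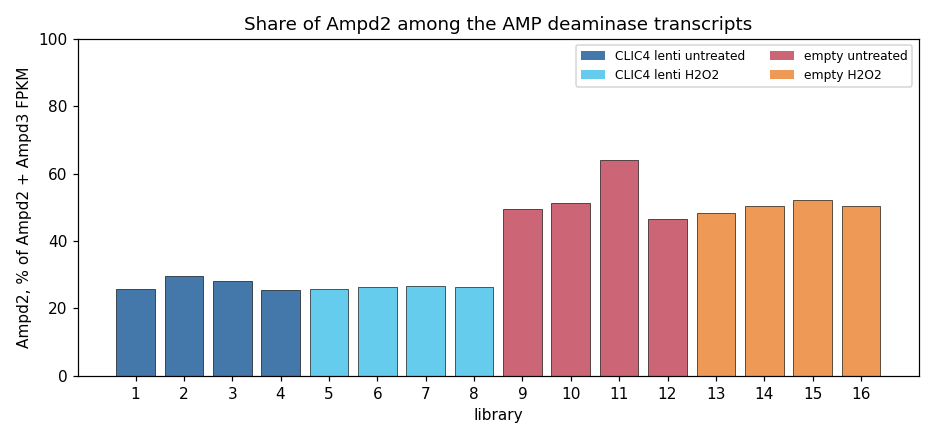
Ampd2 as a percentage of the summed FPKM of Ampd2 and Ampd3 (vertical axis, starting at 0) in each library, ordered and coloured by group; each bar is 1 library. Lentiviral libraries lie at or below 29.7% and empty-vector libraries at or above 46.5%, with library 11 highest at 64.2%.

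Ada, adenosine deaminase, was low and was higher in empty-vector cells. It was at 15.0, 14.8, 14.1 and 16.3 TMM-scaled CPM in untreated lentiviral cells and at 18.6, 19.9, 42.3 and 19.3 in libraries 9 to 12. With H2O2 the lentiviral range was 13.9 to 14.7 and the empty-vector mean 19.5 ± 1.62 (SD, n = 4), and the groups did not overlap in either state. The log2 change was 0.36 ± 0.06 (SE) untreated without library 11, 0.73 ± 0.21 (SE) with it and 0.45 ± 0.21 (SE) with H2O2 (SE 0.06 in the fit without library 11).

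Pnp, purine nucleoside phosphorylase, was at 49.4, 46.0, 46.6 and 40.8 TMM-scaled CPM in untreated lentiviral cells and 41.5, 38.9, 136 and 38.9 in libraries 9 to 12. With H2O2 it was at 42.7 to 49.0 in lentiviral and 37.9 to 41.1 in empty-vector cells, where the groups did not overlap. Library 11 reversed the direction of the untreated comparison, which was -0.20 ± 0.06 (SE, log2) without it and 0.48 ± 0.32 (SE) with it. With H2O2 the change was -0.20 ± 0.32 (SE), with an SE of 0.05 in the fit without library 11. The span of Pnp overlaps its paralog Pnp2 and Gm49342 on the same strand, so the split of reads between them is uncertain. Pnp2 itself held 725 counts over all 16 libraries.

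Gda, guanine deaminase, was barely detected and was too low to be tested. It had 4, 3, 10 and 1 counts in libraries 9 to 12, and 1, 1, 0 and 3 in libraries 13 to 16, against 0 in all 8 lentiviral libraries. Against 3 counts over the group it was at least 6.26-fold higher with the empty vector untreated, at least 3.41-fold without library 11, and at least 1.65-fold with H2O2, where the groups shared the value 0.

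Among the phosphoribosyltransferases that return bases to nucleotides, Hprt, which salvages hypoxanthine and guanine, was at 103, 104, 98.2 and 113 TMM-scaled CPM in untreated lentiviral cells and 112, 114, 41.0 and 109 in libraries 9 to 12. The untreated groups overlapped with or without library 11. With H2O2, lentiviral cells held 95.7, 94.7, 94.2 and 96.8 and empty-vector cells 105, 110, 109 and 125, with no overlap. The log2 change was 0.09 ± 0.05 (SE) untreated without library 11, -0.16 ± 0.22 (SE) with it and 0.24 ± 0.22 (SE) with H2O2 (SE 0.05 in the fit without library 11).

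Aprt, which salvages adenine, was at 173 to 199 TMM-scaled CPM in untreated lentiviral cells and, without library 11, at 205 to 221 in untreated empty-vector cells, while library 11 held 111. With H2O2 it was at 177 to 186 against 198 to 223. The log2 change was 0.20 ± 0.05 (SE) untreated without library 11, 0.02 ± 0.16 (SE) with it and 0.19 ± 0.16 (SE) with H2O2 (SE 0.04 in the fit without library 11). The sign of the value that includes library 11 changed with the filter and the unit, so no direction is given for it.

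Counted over the 7 genes other than Uox and Gda, with all 16 libraries, 2 were higher with no overlap in untreated empty-vector cells (Ada and Ampd2) and 0 lower. Over all genes tested, 24% were higher and 25.6% lower by that rule. Without library 11 the counts were 4 higher (Xdh, Aprt, Ada and Ampd2) and 1 lower (Ampd3), where 36.2% and 36% of all genes were. With H2O2 they were 5 higher (Xdh, Hprt, Aprt, Ada and Ampd2) and 2 lower (Pnp and Ampd3), where 34.6% and 34.8% of all genes were. These members were chosen with the contrast known, and nothing is read from their count.

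**Figure D3:**
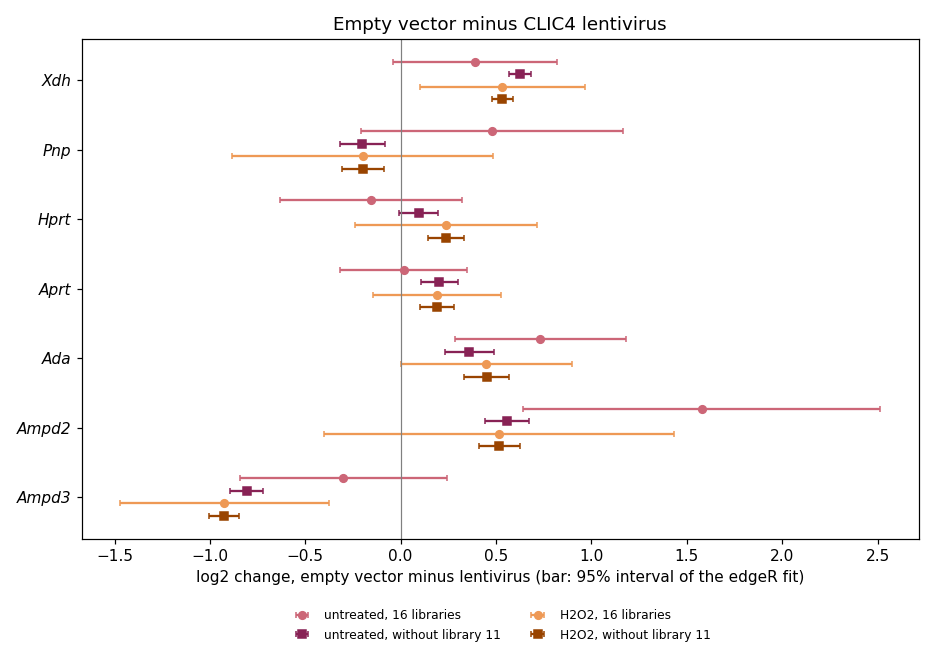
Log2 change, empty vector minus CLIC4 lentivirus (horizontal axis), of 7 genes in untreated and H2O2-treated cells, with and without library 11; points are edgeR estimates and bars their 95% intervals, which are not tests. Without library 11 the untreated changes lie between -0.81 for Ampd3 and 0.63 for Xdh, and the intervals are narrower.

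Levels per unit length ordered the genes differently in the lines. In untreated lentiviral cells the order by mean FPKM was Aprt at 304, Hprt at 97.8, Xdh at 83.3, Ampd3 at 45.0, Pnp at 30.9, Ampd2 at 16.9 and Ada at 10.3, each separate from the next, with Uox and Gda near 0 and not separate. The order was the same in lentiviral cells with H2O2. In empty-vector cells with H2O2, Aprt at 346 was followed by Xdh at 129 and Hprt at 108. Pnp at 26.4, Ampd2 at 26.0 and Ampd3 at 25.7 came next and did not differ beyond their spread, followed by Ada at 13.6, Uox at 8.14 and Gda. Untreated empty-vector cells without library 11 had the same first 3 genes and the same last 3.

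None of the 8 genes that could be tested passed an adjusted p of 0.05 for H2O2 treatment in the quasi-likelihood test of edgeR. With all 16 libraries the count was 0 of 8 in empty-vector cells, 0 of 8 in lentiviral cells and 0 of 8 for the difference between these responses, and over all 14445 genes the share called was 0% in each. The smallest adjusted p of the members was 0.339, 1 and 0.658 in edgeR. At an unadjusted p below 0.05 there were 2 members in empty-vector cells (Pnp and Ampd2), 0 in lentiviral cells and 0 for the difference, against 2120, 255 and 859 of all genes. DESeq2, limma voom with library weights and limma on log2 FPKM each called 0 members as well, while DESeq2 called 58, 1 and 17 of all genes and voom 98, 24 and 21.

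Without library 11 the spread narrowed from a biological coefficient of variation of 23.1% to 5.28%. edgeR then called 0 of 8 members in each of the 3 contrasts, where 0.24%, 0% and 0.192% of all 14602 genes were called. The smallest adjusted p of a member was 0.591 in empty-vector cells, 0.206 in lentiviral cells and 0.233 for the difference. At an unadjusted p below 0.05 there were 0 members, 2 (Hprt and Ampd3) and 3 (Xdh, Hprt and Ampd3), against 1994, 2135 and 2391 of all genes.

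Intervals of the H2O2 estimates rest on the spread between libraries, which may be technical, so they do not bound a biological response. In empty-vector cells without library 11, Uox changed by -0.01 on the log2 scale (95% interval -0.22 to 0.21, adjusted p = 0.993, edgeR), and with all libraries by 0.02 (-0.39 to 0.43, adjusted p = 0.948, edgeR). In lentiviral cells Uox went from 1 to 3 counts, and no fold is given for it. Hprt in lentiviral cells was lower with H2O2 in 4 of 4 libraries, the groups not overlapping, with a log2 change of -0.13 (-0.23 to -0.04, adjusted p = 0.206, edgeR without library 11). Ampd3 there changed by 0.09 (0.01 to 0.17, adjusted p = 0.279, edgeR without library 11), with overlapping groups.

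Xdh in empty-vector cells was at -0.04 (-0.10 to 0.02, adjusted p = 0.591, edgeR without library 11), the 4 treated libraries lying just below the 3 untreated ones. For the 7 genes other than Uox and Gda in empty-vector cells without library 11, all estimates lay between -0.05 and 0.04. With library 11 included those of Pnp and Ampd2 were -0.71 (-1.40 to -0.02) and -0.98 (-1.90 to -0.06), each with an adjusted p of 0.339 in edgeR. The H2O2 and vector comparisons share their untreated libraries, so these values are not independent of those between the vectors. The median over the 8 members was -0.02 in empty-vector cells and 0.01 in lentiviral cells without library 11, against -0.01 and 0 over all genes tested. The lentiviral median includes Uox, at 1 and 3 counts.

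**Figure D4:**
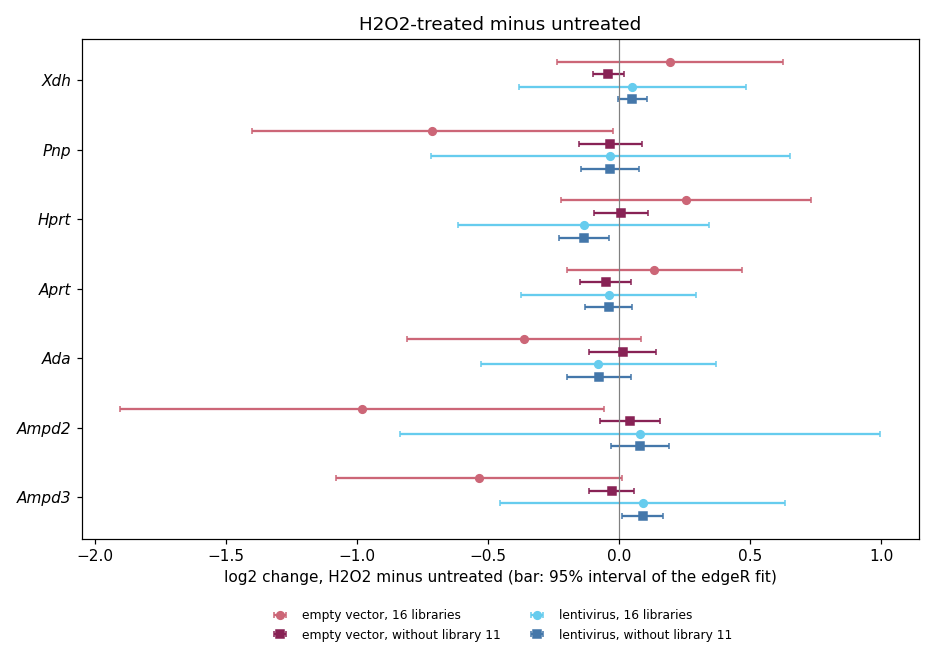
Log2 change, H2O2 minus untreated (horizontal axis), of 7 genes in each line, with and without library 11; points are edgeR estimates and bars their 95% intervals. Without library 11 the empty-vector estimates lie between -0.05 and 0.04, and those of Pnp and Ampd2 move to -0.71 and -0.98 with it.

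The surroundings of the 9 enzymes in purine metabolism were read from 9 lists of 82 other genes, of which 76 were in the count table and 63 were tested between the vectors. In untreated cells 18 were higher and 12 lower with the empty vector by edgeR, where 29% of all genes tested were higher and 24.3% lower. With H2O2 it was 18 higher and 11 lower, where 22.1% and 20% of all genes were. Without library 11 there were 27 higher and 19 lower untreated (37% and 37.3% of all genes) and 28 and 20 with H2O2 (36.6% and 37.2%). These shares of all genes are the background for the counts of each list below, none of which is read as particular to its list. The p-values between the vectors, here and for the genes before Uox, rest on the spread between libraries, which may be technical. Vector and line cannot be told apart, so these p-values compare the sequenced lines and do not test an effect of the vector. The lists were also chosen with earlier results known. Below, rose and fell mean higher and lower in the empty-vector line. The median log2 change of the lists together was 0.05 untreated and 0.03 with H2O2, against 0.03 and -0.01 over all genes.

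Urah, which hydrolyses the product of urate oxidase, had the largest fitted change of these genes and was the 1 of 3 listed genes of urate breakdown that could be tested. The untreated lentiviral libraries held 0 Urah counts each and the H2O2-treated ones 0, 1, 1 and 0. The empty-vector libraries held 75, 73, 108 and 70 counts untreated and 58, 82, 73 and 50 with H2O2. No empty-vector library was near a lentiviral one. Against 3 counts over the group Urah was at least 113-fold higher untreated, at least 93.0-fold without library 11, and 130-fold (95% exact interval 35.7 to 1081) with H2O2. Urah passed the filter on low counts through the empty-vector libraries alone, so no p is given for it, and it stands among the called genes on that condition. Allc, allantoicase, had 1 count in all libraries together.

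Mocos, the sulfurase that completes the molybdenum cofactor of xanthine dehydrogenase, was higher in the empty-vector line. It was at 0.232 to 0.283 TMM-scaled CPM in untreated lentiviral cells and 2.44 to 4.65 in untreated empty-vector cells, a log2 change of 3.95 ± 0.23 (SE, adjusted p = 6.72e-09, edgeR). With H2O2 the ranges were 0.223 to 0.403 and 4.15 to 5.09, a log2 change of 3.97 ± 0.23 (SE, adjusted p = 5.39e-09, edgeR). Mocs1, which starts cofactor synthesis, fell by 0.75 untreated (adjusted p = 1.73e-06, edgeR) and by 0.55 with H2O2 (adjusted p = 3.68e-05, edgeR) on the log2 scale. Suox, sulfite oxidase, was called higher untreated at 2.55 (adjusted p = 0.0132, edgeR), a call lost in 4 of 24 alternative fits. Library 11 held 88.7 TMM-scaled CPM and without it the change was 0.26 (adjusted p = 0.00516, edgeR). Over these 10 genes, 7 tested, 2 were higher and 1 lower untreated, and 1 and 1 with H2O2, against 29% and 24.3%, and 22.1% and 20%, of all genes. Without library 11 it was 3 and 2 untreated and 4 and 2 with H2O2, against 37% and 37.3%, and 36.6% and 37.2%.

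**Figure D5:**
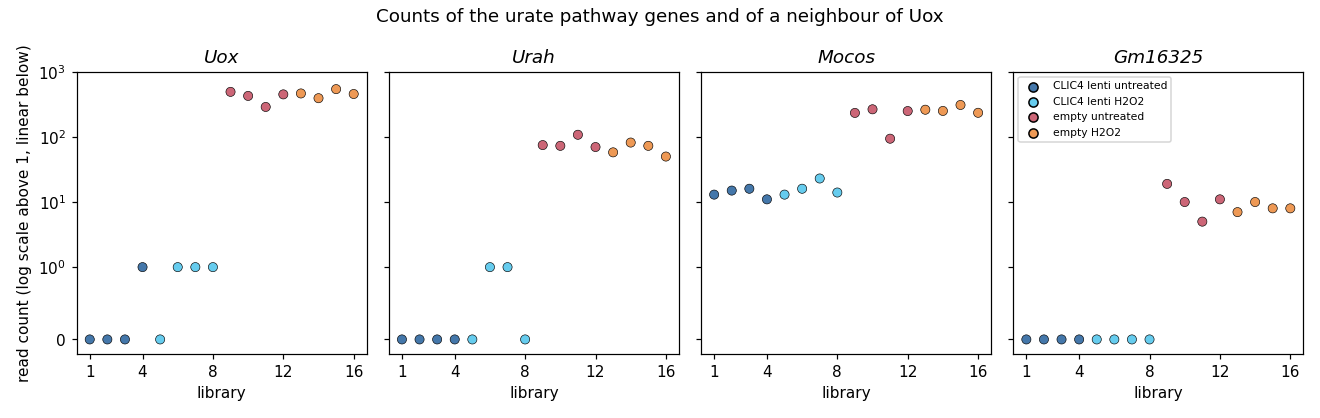
Read counts (vertical axis, logarithmic above 1 and linear below) of Uox, Urah, Mocos and Gm16325 in libraries 1 to 16 (horizontal axis), coloured by group; each point is 1 library. Uox and Urah hold at most 1 count in each lentiviral library and at least 289 and 50 in each empty-vector library, and Mocos goes from at most 23 to at least 94.

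In the peroxisome, where urate oxidase acts, 4 of 11 tested genes of oxidases, catalase and import were higher and 4 lower untreated, and 4 and 3 with H2O2. The shares of all genes were 29% and 24.3% untreated and 22.1% and 20% with H2O2, and without library 11 the list had 5 higher and 4 lower in both states. Hao1, a glycolate oxidase that also releases H2O2, rose by 2.59 ± 0.25 untreated (SE, adjusted p = 9.18e-07, edgeR) and 3.61 ± 0.26 with H2O2 (SE, adjusted p = 5.12e-08, edgeR) on the log2 scale. Pipox, an oxidase of pipecolate and sarcosine, was at 4.40 to 6.14 TMM-scaled CPM in untreated lentiviral and 0 to 0.242 in untreated empty-vector cells. It passed the filter on low counts through the lentiviral libraries alone, so no p is given. Pipox stands among the called genes on that condition. Acox3, an acyl-CoA oxidase, fell by 1.19 (adjusted p = 2.21e-05, edgeR) and by 1.03 (adjusted p = 8.23e-05, edgeR). Cat, catalase, which removes H2O2, was added after its values were seen: it was at 97.1 ± 2.41 TMM-scaled CPM (SD, n = 4) in untreated lentiviral and 68.0 ± 11.5 (SD, n = 4) in untreated empty-vector cells, a log2 change of -0.51 (adjusted p = 0.000426, edgeR). Without library 11 it was at 73.7 ± 2.03 (SD, n = 3) in untreated empty-vector cells, a log2 change of -0.40 (adjusted p = 4.91e-10, edgeR). With H2O2 its log2 change was -0.34 (adjusted p = 0.00951, edgeR).

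Of 10 genes of de novo purine synthesis 1 was higher and 0 lower untreated, where 29% and 24.3% of all genes were, and 2 and 1 with H2O2, where 22.1% and 20% were. Without library 11 it was 6 and 2 in both states, where 37% and 37.3% of all genes were untreated and 36.6% and 37.2% with H2O2. Ppat, the enzyme of the first committed step, was at 0.22 ± 0.06 untreated (SE, log2, adjusted p = 0.00506, edgeR) and 0.17 with H2O2 (adjusted p = 0.0304, edgeR). The untreated call was lost in 4 of 25 alternative fits and the H2O2 call in 10 of 25. Of 12 genes of the AMP and GMP branches 5 were higher and 4 lower untreated, and 5 and 3 with H2O2, and without library 11 it was 5 and 5 untreated and 5 and 6 with H2O2, against the same shares of all genes.

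Within those branches, Adss, adenylosuccinate synthase, which starts from the IMP that Ampd2 and Ampd3 make, rose by 0.51 on the log2 scale in both states (adjusted p = 0.000187 and 0.000212, edgeR). Guk1, guanylate kinase, fell by 0.52 untreated (adjusted p = 3.45e-05, edgeR) and by 0.44 with H2O2 (adjusted p = 0.000173, edgeR).

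Of the other salvage enzymes, 5 tested, 1 was higher untreated and 2 with H2O2, with 0 lower, against 29% and 22.1% higher and 24.3% and 20% lower over all genes. Without library 11 it was 3 higher and 1 lower in both states. Dck, a deoxynucleoside kinase, rose from 13.3 ± 0.632 to 23.9 ± 3.89 TMM-scaled CPM untreated (SD, n = 4, adjusted p = 1.67e-05, edgeR), a log2 change of 0.84, and by 0.91 with H2O2 (adjusted p = 8.4e-06, edgeR). Mtap, which salvages methylthioadenosine, held 2 counts over all 16 libraries and could not be tested.

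Genes that supply adenosine and carry nucleosides held calls in both directions. Nt5e, the cell-surface enzyme CD73 that makes adenosine from AMP, rose by 1.15 ± 0.12 untreated (SE, log2, adjusted p = 2.8e-06, edgeR) and 1.17 with H2O2 (adjusted p = 2.35e-06, edgeR), and Samhd1, a deoxynucleotide hydrolase, fell by 0.39 (adjusted p = 4.78e-05, edgeR) and by 0.43 (adjusted p = 2.22e-05, edgeR). These were the 1 higher and 1 lower of 8 nucleotidases tested in each state, and without library 11 it was 1 and 2. Among 6 transporters, 1 was higher and 1 lower in each state, and without library 11 it was 2 and 1 untreated and 2 and 2 with H2O2. Those called with all libraries were Slc28a2, a concentrative purine nucleoside carrier with 4 counts in untreated lentiviral cells and 50 in untreated empty-vector cells, and Slc29a3, an equilibrative one of lysosomes and mitochondria, at 24.9 ± 0.361 and 17.7 ± 2.25 TMM-scaled CPM (SD, n = 4). The adjusted p of Slc29a3 untreated was 0.000179 in edgeR. Slc28a2 passed the filter on low counts through the empty-vector libraries alone, so no p is given for it. Slc28a2 stands among the called genes on that condition.

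Of 4 adenosine receptors, 3 were tested. Adora1 fell from 28.6 ± 0.222 to 1.30 ± 0.474 TMM-scaled CPM untreated (SD, n = 4, log2 change -4.44, adjusted p = 5.83e-10, edgeR) and from 30.5 ± 0.812 to 1.60 ± 0.134 with H2O2 (SD, n = 4, log2 change -4.25, adjusted p = 8.19e-10, edgeR). Adora2b held 12 counts in untreated lentiviral and 77 in untreated empty-vector cells, and 17 and 57 with H2O2. It passed the filter on low counts through the empty-vector libraries alone, so no p is given, and its call with H2O2 was lost in 14 of 21 alternative fits. Adora2a passed the filter on low counts through the lentiviral libraries alone, so no p is given for it either. It was called higher untreated at 3.04, a call lost in 15 of 22 alternative fits. Library 11 held 6.84 TMM-scaled CPM, and without it the gene was called lower at -1.21. Of the 3 receptors tested, 2 were higher and 1 lower untreated and 1 and 1 with H2O2. Without library 11 it was 1 and 2 untreated and 1 and 1 with H2O2. Adora2a and Adora2b stand in these counts only on the condition of the filter, while Adora1 passed it in both lines.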

How the data were processed

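RNA from 16 libraries of 6DT1 cells was sequenced by the submitters, 4 libraries per group. The submitters' processing notes name cutadapt, STAR, RSEM and the mm10 build; the versions, the annotation and the strand setting were not given in the sources used here. Files deposited by the authors are a table of read counts per gene, whole numbers that may be rounded RSEM estimates, and a table of FPKM values, which the authors scaled by transcript length and library. Libraries were matched to columns by their number in the titles.

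The counts were tested with edgeR 4.0.16 in R 4.3.3 (quasi-likelihood test, robust, 1 coefficient per group, TMM scaling, filterByExpr, 14445 genes tested), with Benjamini-Hochberg adjustment over all genes tested and a threshold of 0.05. Alternatives used RLE factors, DESeq2 1.42.0, limma 3.58.1 on log2(FPKM + 1) and log2(FPKM + 0.1) with and without a filter of 0.5 FPKM, voom, no filter, 10 CPM in 4 libraries, the compared groups alone, and each library left out. FPKM overlap of the groups was added after seeing the data. Ratios with 1 to 3 counts carry exact intervals, and 0 counts a limit of 3; both cover counting error only. Within groups, counts of any 2 libraries differed by a chi-square of at least 5.05 per degree of freedom, so none was taken as a duplicate. The fit was tested on simulated data.

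The members, the pathway lists and the marker lists were chosen with earlier results of these data known. Genes named were the 9 members, Clic4, up to 3 called genes per list with the smallest adjusted p in untreated cells, the 3 nearest genes on each side of Uox and the 5 genes most correlated with it; 1 gene that this rule names is not reported here. Positions come from GENCODE vM21 (mm10), and promoter windows from RefSeq.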

Additional observations from a re-analysis of the deposited data

Results flagged for a closer look

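Each of the 34 groups of 4 libraries in which a member's TMM-scaled CPM varied was examined for a library far from the others, by whether its gap to the nearest value, as a share of the group's range, exceeded Dixon's critical value. Chance gives about 1 such group in 20, and 11 were found, of which 7 were library 11 of the untreated empty-vector group. In that library Xdh was at 187, Hprt at 41.0 and Aprt at 111, all below the other 3 libraries, and Pnp at 136, Ada at 42.3, Ampd2 at 371 and Ampd3 at 218, all above them. The direction was therefore not shared by the 7 genes, and it held in unscaled CPM, where the ratio to the other 3 libraries was 0.28 for Xdh and 3.57 for Ampd2.

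The other 4 cases were small. Uox stood out at 0.0215 in library 4 of the untreated lentiviral group, which is 1 read against 0 in the others, and at 0 in library 5 of the H2O2-treated lentiviral group, where the others held 1 read. Pnp was at 49.0 in library 6 of the H2O2-treated lentiviral group and at 41.1 in library 16 of the H2O2-treated empty-vector group.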

How the results depend on the processing

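No paired analysis was possible because no library number is shared between groups. Among the other purine genes, leaving out library 11 moved the untreated calls from 18 to 27 higher and from 12 to 19 lower and the H2O2 calls from 18 to 28 higher and from 11 to 20 lower, and the members lower with no overlap in untreated cells from 0 to 1. Voom with library weights gave 19 lower untreated, and 28 higher and 19 lower with H2O2. The filter of 10 CPM gave 8 higher untreated and 9 with H2O2, of fewer genes tested. The compared groups alone gave 11 higher untreated and 19 lower with H2O2. Limma on FPKM gave 9 higher untreated under each of its 3 settings, and with H2O2 11, 11 and, with no filter, 10. Leaving out 1 library at a time gave 16 to 27 higher and 10 to 19 lower untreated, 14 to 28 higher and 10 to 20 lower with H2O2, and 0 members called for H2O2 in each contrast. Over all 9 members, Uox and Gda included, 4 to 6 were higher and 0 to 1 lower with no overlap untreated. With H2O2, 6 to 7 were higher and 2 lower. By that rule 24% of all genes tested were higher and 25.6% lower untreated, or 36.2% and 36% without library 11. With H2O2 the shares were 34.6% and 34.8%. Uox was chosen for being read with the empty vector, so nothing is read from these counts.

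Between the vectors, signs reversed for the untreated changes of 3 members. For H2O2, where no member was called in any fit, estimates changed sign in 13 of 199 values in empty-vector cells, 4 of 198 in lentiviral cells and 10 of 191 of their difference. The untreated vector change of Pnp (0.48) was -0.20 under voom and -0.20 without library 11. Its values with 1 library left out ran from -0.20 to 0.65. The untreated vector change of Hprt (-0.16) was 0.10 under voom and 0.0941 without library 11, with a range of -0.26 to 0.0941. That of Aprt (0.02) was -0.0301 with the filter of 10 CPM and -0.12 in each of the 3 FPKM fits, with a range of -0.0731 to 0.20. Where no cause is given it was not tested. The difference of the H2O2 responses has no fit of the compared groups alone, since it needs all 4 groups. The fitted log2 change of Uox ran from 2.93 (FPKM + 1) to 11.79 (without library 4) and is no bound.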
